A study of Drosophila melanogaster with 2 samples.

Results

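Giant coding transcripts are messenger RNAs of 8000 nt or more, chosen here as the RefSeq coding accessions (prefix NM_) of that length with at least 50 uniquely assigned reads summed over both libraries. The rule leaves out sarcomere genes (sls, bt, Unc-89, Msp300 and RyR), channel genes (para and cac) and the lipoprotein genes apolpp and Apoltp. Of these, sls, bt, Msp300, apolpp and Apoltp had coding accessions of that length, 8 in all, of which 5 had 50 reads. That left 128 transcripts of 8638 coding accessions with 50 reads and of 15090 accessions in all. Of the 128, 123 belonged to 110 named genes. The other 5 matched no gene of the RefSeq annotation and stay under their accession. Whether they belong to a left-out gene could not be checked, so several values are also given without them. The members were chosen by transcript length and by summed reads, so neither is a finding.

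RNA came from heads of Canton-S females (Drosophila melanogaster) that were 3 to 5 days old. Flies of the ethanol group were sedated with ethanol vapor for 15 min and then kept in plain air for 30 min, and flies of the control group spent all 45 min in plain air. About 180 flies made up each group, pooled into 1 poly(A) library, with 11001805 reads on coding accessions after ethanol and 11736467 in the control, and 0.937 times as many reads in all after ethanol. With 1 library a group, the differences below have no replicates behind them and no p-value is given for them. In bulk RNA, fewer cells of a type and less RNA per cell cannot be told apart.

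Many giant transcripts encode large proteins built from repeated or catalytic domains. Among them are ubiquitin ligases, which tag proteins for degradation or signalling, crosslinkers that tie actin to microtubules, cadherins and endocytic receptors at the cell surface, and lipid transfer proteins between organelles. In the brain such proteins hold synapses and axons in shape.

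Giant transcripts were lower in the ethanol library almost throughout, and the longest classes lay furthest below the control. The 128 transcripts held 81646 reads after ethanol, which was 0.740% of that library (95% Clopper-Pearson interval 0.735 to 0.745), and 117656 reads in the control, which was 1.0% (0.995 to 1.01). Intervals here cover counting error only. The log2 ratio of the summed reads, ethanol over control, each scaled by its library total, was -0.43 (interval -0.45 to -0.42). Without the unnamed accessions the shares were 0.702% after ethanol and 0.921% in the control. Their log2 ratio was then -0.39 (interval -0.40 to -0.38). Over single transcripts the median log2 ratio was -0.40, against 0.05 over all 8638 coding accessions with 50 reads, and 116 of the 128 lay below 0, or 90.6% against 43.6%. The counting interval lay wholly below a ratio of 1 for 90 giant transcripts, or 70.3%, where the background over all coding accessions was 15.1%. It lay wholly above 1 for 1 transcript, or 0.781%, against a background of 23.0%.

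The individual differences were modest. With a rule of at least 2-fold and an interval that excludes 1, 7 of the 128 were called lower, against a background of 1.03%, and 0 were called higher, against a background of 1.83%. Of the 7, 3 are unnamed accessions, so 4 of 123 named transcripts were called. The authors' deposited table gave 81 of the 128 as lower with an FDR of at most 0.05, or 63.3%, against a background of 10.7%. The sources used here do not name the test behind that FDR. The RNA integrity number, a measure of how intact the RNA is, was 6.40 for the ethanol sample and 6.80 for the control sample, per the labels. With 1 library per group, the treatment and this difference in RNA integrity cannot be told apart.

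**Figure D1:**
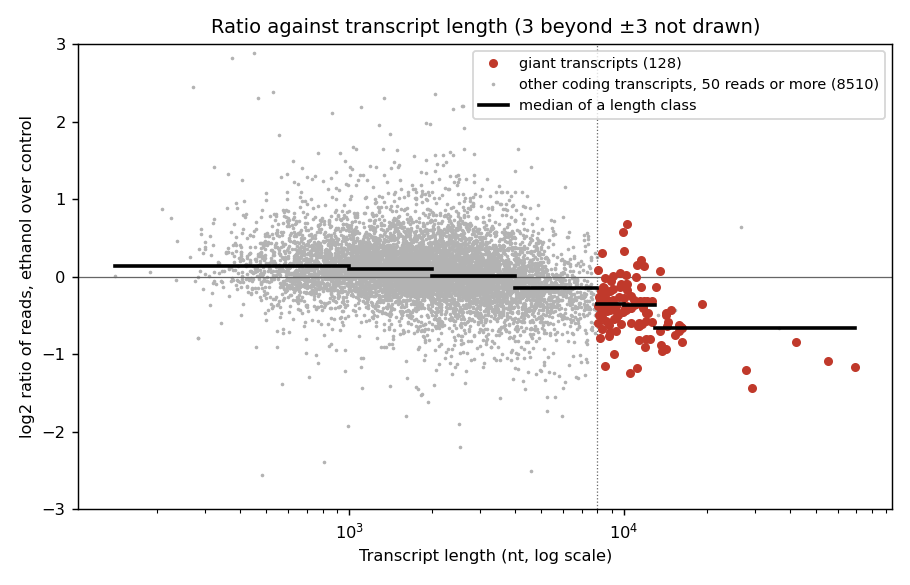
Log2 ratio of reads, ethanol over control, against transcript length in nt on a log scale. Red points are the 128 giant transcripts and grey points the 8510 other coding accessions with at least 50 reads, black bars are medians of length classes over all of them, and 3 grey points lie beyond the axis. The class medians step down from 0.13 under 1 kb to -0.66 at 13 kb or more.

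The ratio was graded by length on both sides of the threshold. Among all coding accessions the median log2 ratio was 0.13 under 1 kb (1472 accessions), 0.10 from 1 to 2 kb (3001), 0.01 from 2 to 4 kb (2986) and -0.15 from 4 to 8 kb (1046). Within the giant transcripts it was -0.36 from 8 to 10 kb (62 transcripts), -0.38 from 10 to 13 kb (43) and -0.70 at 13 kb or more (23). Without the unnamed accessions the last value was -0.65 (20 transcripts). In the 13 kb class 22 of 23 transcripts lay below 0. The summed reads of that class gave a log2 ratio of -0.76 (interval -0.79 to -0.74), against -0.33 (-0.35 to -0.31) for the 8 to 10 kb class. The 13 kb sum includes unnamed transcripts at -1.09, -1.17 and -1.44, the first with 2780 ethanol and 6332 control reads. That sum was not computed without them. With at least 500 reads, the medians over all coding accessions ran from 0.10 under 1 kb through -0.16 from 4 to 8 kb to -0.64 at 13 kb or more (14 accessions, sls and Apoltp included). Across the 128 transcripts the ratio and the length had a Spearman rho of -0.34, and across the 86 named ones with at least 200 reads -0.36. All these points come from the same pair of libraries, so the correlation is a description and not a test.

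Of the transcripts nearest to the thresholds, l(3)80Fj and an rg transcript lay above 0 and the others below. Just inside 8000 nt were l(3)80Fj (8019 nt, log2 ratio 0.09), Ubr3 (8041 nt, -0.38) and larp (8052 nt, -0.60). Just outside were Wdr62 (7996 nt, -0.63), Prosap (7995 nt, -0.18) and the unnamed NM_141072 (7966 nt, -0.52). At the read floor, gpp had 22 ethanol and 30 control reads (-0.35) and a pair of rg transcripts stood at 0.21 and -0.37. Just under it were transcripts of Ncoa6 (-2.02), skd (-0.86) and unc79 (-0.09). The 110 giant coding transcripts under the floor together had 703 ethanol and 983 control reads, a log2 ratio of -0.39 (interval -0.53 to -0.25). Accessions of left-out genes with 50 reads were at -0.22 (apolpp), -0.44 (sls), -0.49 (Apoltp), -0.67 (Msp300, interval -1.48 to 0.11) and 0.63 (bt, -0.19 to 1.49).

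Giant transcripts had a median of 650 reads summed over both libraries, against 446 over all coding accessions. Their median RPKM (assigned reads divided by transcript length and by the library's total) was 2.67 in the ethanol library and 3.22 in the control, against 10.5 and 10.1 over all coding accessions. RPKM divides by the length that chose the members, and the floor of 50 reads admits long transcripts at a lower RPKM than short ones, so that gap is no finding. Their RPKM spanned a wide range, since 29 of them had a mean of at least 10 and 43 a mean under 1. Many giants were counted over a small part of their length, as given below, so this is not a range of transcript level alone. The ratio hardly followed the RPKM among the giants (Spearman rho 0.13 with the mean RPKM, 128 transcripts).

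**Figure D2:**
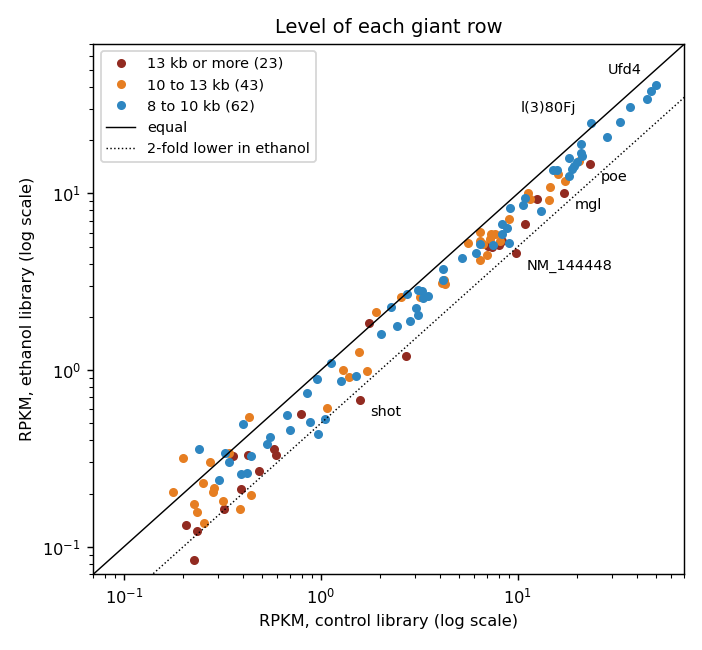
RPKM of each giant transcript in the ethanol library (vertical axis) against the control library (horizontal axis), both log scales, coloured by length class. The solid line marks equal levels and the dotted line a level 2-fold lower in ethanol. Most points lie between the lines, with NM_144448 and shot among those past the dotted one and l(3)80Fj just above the solid one.

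The ubiquitin ligases formed a large group of well-read giants, and most of those over 14 kb lay lower than most of those under 10 kb. The list of ubiquitin ligases and proteolysis genes held 10 giant transcripts of 10 genes, of which 9 had intervals below 1, with a median of -0.53. Ufd4, a ligase of the HECT family, was the most abundant named giant, with 41 RPKM after ethanol and 50.4 in the control (3776 and 4949 reads, log2 ratio -0.30, interval -0.36 to -0.24). hyd, another HECT ligase, had 1698 ethanol and 2232 control reads (-0.30, -0.39 to -0.21), and Ubr3 1433 and 1994 (-0.38, -0.48 to -0.28). These 3 transcripts are 8041 to 9074 nt long. The next sentences give the members of 14793 nt or more, which apart from poe were picked out after their values were seen.

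poe, whose product belongs to the UBR family of ligases, had 2612 ethanol and 4404 control reads over 16183 nt (-0.66, -0.73 to -0.59). HUWE1 had 1162 and 2015 (-0.70, -0.81 to -0.60), HERC2 941 and 1548 (-0.62, -0.74 to -0.51), and hiw (highwire), which restrains synaptic growth, 914 and 1528 (-0.65, -0.77 to -0.53). Bruce, an inhibitor of apoptosis, was nearer to the shorter ligases, with 1520 and 2183 reads (-0.43, -0.52 to -0.33). The intervals of poe, HUWE1, HERC2 and hiw lay wholly below those of Ufd4, hyd and Ubr3. LUBEL, the linear ubiquitin ligase, lay as low as these 4 at 8898 nt, with 781 ethanol and 1366 control reads (-0.71, -0.84 to -0.59). faf, a deubiquitinase, was at 0.01 (229 and 243 reads, -0.26 to 0.27), counted over 9.05% of its length in the ethanol library and 12.88% in the control. The 15 transcripts under 8000 nt in the same list, such as Uba1 (4345 nt, -0.07) and Usp7 (5647 nt, -0.08), had a median of -0.07, with 6 intervals below 1 and 1 above.

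The cytoskeletal crosslinkers included the lowest ratios among named giants with 200 reads. shot (short stop), the spectraplakin that joins actin to microtubules, had 209 ethanol and 514 control reads over 27833 nt. That is a level of 0.434 of the control (interval 0.368 to 0.510, log2 ratio -1.21), past the 2-fold rule. Ank2, the ankyrin that stabilises axons and synaptic terminals, had 125 and 241 reads over 42128 nt (-0.85, -1.18 to -0.54). rhea, which encodes talin, the link between integrins and actin, was much better read at 2605 and 3610 (-0.38, -0.45 to -0.30), and the kinesin gene Khc-73 had 517 and 688 (-0.32, -0.49 to -0.15). All 8 giant transcripts of this list lay below 0 (median -0.57), 5 of them with intervals below 1. Of 26 shorter transcripts of the list 17 lay below 0 (median -0.06), 8 with intervals below 1 and 3 above. Among these the spectrins alpha-Spec (7586 nt) and beta-Spec (7488 nt) stood at -0.27 and -0.15. Outside the list, the dynein heavy chain genes Dhc93AB, Dhc62B and Dhc1 were also looked at, a choice made with their values known. Dhc93AB had 53 ethanol and 92 control reads (-0.70, -1.22 to -0.20). Dhc62B had 24 and 45 (-0.81, -1.59 to -0.07), and Dhc1 19 and 39 (-0.94, -1.82 to -0.12). Dhc64C, the dynein heavy chain gene within the list, had 21 and 35 reads and an interval that included 0 (-0.64, -1.50 to 0.18).

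Among surface proteins, both giant lipoprotein receptor genes lay low. mgl (megalin), a large endocytic receptor, had 1694 ethanol and 3062 control reads over 15265 nt (-0.76, -0.85 to -0.67), and LRP1, its relative, 785 and 1254 (-0.58, -0.71 to -0.45). The shorter receptor genes of their list stood at 0.09 (cue) and -0.20 (arr). Among adhesion and matrix genes, the giant cadherin ds (dachsous) had 135 and 250 reads (-0.80, -1.11 to -0.49). Its partner ft (fat), named after its values were seen, had 59 and 113 (-0.84, -1.32 to -0.38). LanA, the laminin alpha chain, was at -0.34 (-0.46 to -0.21) with 919 and 1240 reads. N (Notch), with 675 and 766 reads over 10189 nt, had an interval that included 0 (-0.09, -0.24 to 0.06). The 4 transcripts of trol, the perlecan gene, spanned -0.58 to 0.33 with overlapping intervals. In all, 7 of the 9 giant adhesion transcripts lay below 0 (median -0.34), 4 with intervals below 1, against 16 of 23 shorter ones (median -0.20), 10 with intervals below 1 and 1 above.

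Of the 10 giant membrane traffic transcripts, 9 lay below 0. lva (lava lamp), a golgin, had 1987 ethanol and 2893 control reads (-0.45, -0.53 to -0.37). Rbcn-3A, a regulator of the vacuolar proton pump, had 1761 and 2502 (-0.41, -0.50 to -0.32), and mv (mauve), which sets the size of lysosome-related organelles, 1151 and 1912 (-0.64, -0.75 to -0.53). The lipid transfer gene Vps13 (-0.43) and its relative Vps13D (-0.41), as well as bchs (-0.40), an autophagy adaptor, were within the intervals of lva and Rbcn-3A, and were named after their values were seen. rg (rugose), a kinase anchor of the same domain family as bchs, had 3 giant transcripts with few reads. The one of 11161 nt was called lower with 24 ethanol and 58 control reads (-1.18, -1.93 to -0.47), and the intervals of all 3 overlapped. The 10 giant transcripts of the list had a median of -0.41 and 8 intervals below 1. The 24 shorter ones had a median of -0.10, with 5 intervals below 1 and 3 above, among them Rab7 (1605 nt, 0.17) and Sec16 (7319 nt, -0.49).

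The 4 synaptic giant transcripts, of 2 genes, had a median of -0.28, and the 6 signalling ones, of 5 genes, one of -0.30. Both lay above the median of all giants, as did the medians of the chromatin (-0.14) and RNA (-0.16) lists. unc-13, which primes synaptic vesicles, had 592 ethanol and 676 control reads on its 10267 nt transcript (-0.10, -0.26 to 0.06). That interval included 0 and lay above the median of all giants, -0.40. The 9753 nt transcript of unc-13, with 96 and 110 reads, was likewise at -0.10 (-0.51 to 0.30). The transcript of 9746 nt, with 49 and 80 reads, was at -0.61 (-1.16 to -0.08). Rim, an active zone scaffold, had 693 and 1019 reads (-0.46, -0.60 to -0.32). The 18 shorter transcripts of the active zone list had a median of 0.21, with 5 intervals above 1 and 2 below. Of the kinases and GTPase regulators, the receptor gene Alk had 1770 and 2094 reads (-0.15, -0.24 to -0.06), nonC 631 and 802 (-0.25, -0.41 to -0.10), and tefu, the fly ATM kinase, 148 and 200 (-0.34, -0.66 to -0.03). Nf1, the Ras GTPase-activating neurofibromin, singled out after its values were seen, had 53 and 113 reads on its 9154 nt transcript (-1.0, -1.50 to -0.52) and 32 and 46 on the 8893 nt one (-0.43, -1.13 to 0.25). All 6 giants of this list lay below 0 (median -0.30), and so did 24 of its 30 shorter transcripts (median -0.15).

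**Figure D3:**
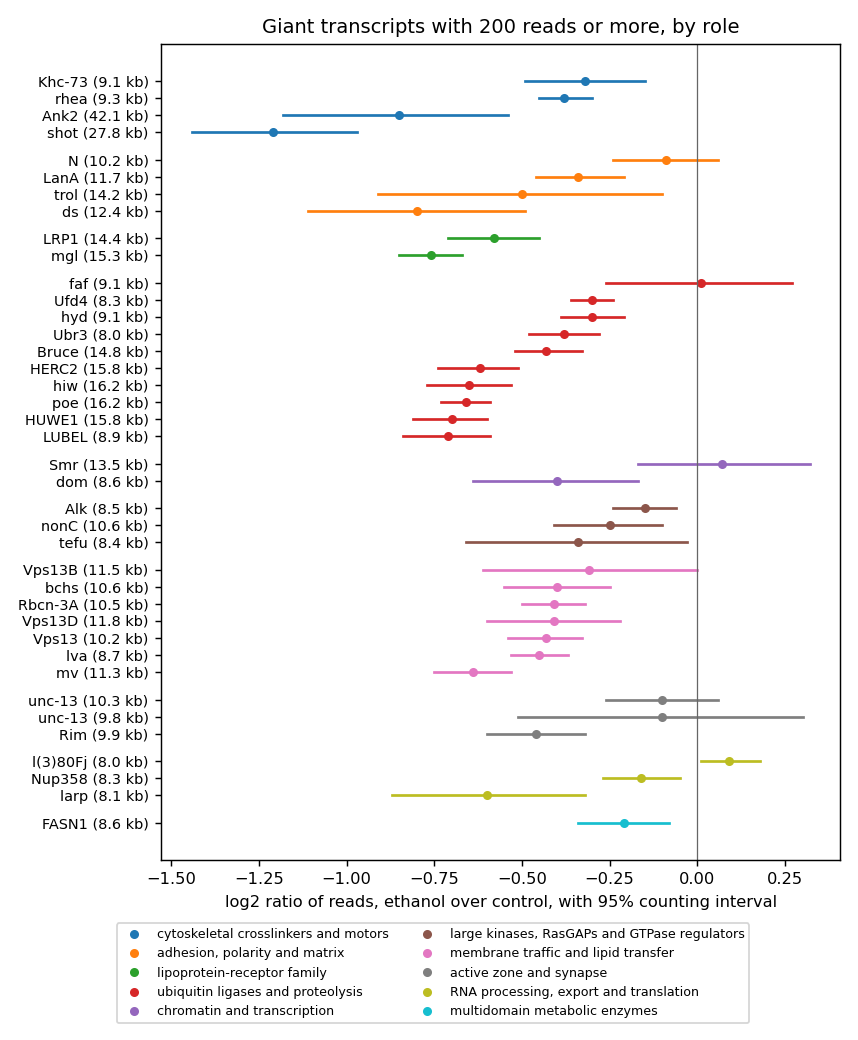
Log2 ratio of reads, ethanol over control, with 95% counting intervals for the giant transcripts of the role lists with at least 200 reads, coloured by list, with the length of each in kb. Points left of 0 are lower in ethanol. shot (-1.21) and Ank2 (-0.85) lie furthest left, and l(3)80Fj (0.09) is the transcript whose interval lies to the right of 0.

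In the chromatin and transcription list 2 of the 5 giant transcripts lay above 0, as did 2 of the 9 giant adhesion transcripts. Smr, a transcriptional corepressor gene, had 274 ethanol and 278 control reads on its transcript of 13475 nt (0.07, -0.17 to 0.32). Those reads covered 10.29% of that transcript in the ethanol library and 12.78% in the control. dom, a chromatin remodelling ATPase, had 250 and 353 reads on its 8605 nt transcript (-0.40, -0.64 to -0.17) and 19 and 48 on the 10507 nt one, which was called lower (-1.24, -2.09 to -0.45). osa, a subunit of the Brahma remodelling complex, named after its values were seen, was the highest member at 0.68. It had 36 and 24 reads, with an interval that included 0 (-0.11 to 1.49). They covered 3.98% of its length in the ethanol library and 3.19% in the control. The 5 giant transcripts of this list had a median of -0.14 and 2 intervals below 1. The 24 shorter ones had a median of -0.06, 8 intervals below 1 and 3 above.

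The one giant transcript with an interval above 1 was l(3)80Fj, whose product is related to Gcn1, an activator of the kinase that slows translation under amino acid shortage. It had 2219 ethanol and 2217 control reads over 8019 nt (0.09, 0.01 to 0.18), and with TMM scaling its interval included 1. Nup358, a nuclear pore protein, was at -0.16 (1237 and 1479 reads, -0.27 to -0.05), and larp, an RNA-binding protein, at -0.60 (183 and 295, -0.87 to -0.32). FASN1, a fatty acid synthase gene, had 892 and 1100 reads on its 8612 nt transcript (-0.21, -0.34 to -0.08). Besides l(3)80Fj, Smr, faf and N, the 10 highest ratios among members with 200 reads belonged to transcripts of CG34417 (0.15), sbb (0.02), sdt (-0.02), zormin (-0.06) and, at -0.10 each, to unc-13 (10267 and 9753 nt). In the control, reads covered 4.44% of this CG34417 transcript, 15.03% of sbb, 38.17% of sdt and 7.07% of zormin. They covered 58.84% and 3.97% of the unc-13 transcripts, against 99.08% of l(3)80Fj and 94.72% of N.

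Other well-read giants in no role list also lay low. tud (Tudor), best known from the germ line, had 3436 ethanol and 4564 control reads (-0.32, -0.38 to -0.25). Eip93F, an ecdysone-induced transcription factor, had 3232 and 4167 (-0.27, -0.34 to -0.21). CG9932 had 3103 and 4322 (-0.38, -0.45 to -0.32) and Sdb 1557 and 2458 (-0.57, -0.66 to -0.47). Dora (-0.77, -0.93 to -0.62) and Hers (-0.70, -1.08 to -0.33), a repressor of histone genes, were among the 10 lowest members with 200 reads. CAP, a scaffold gene with 11 other transcripts in the tables, was called lower at 8545 nt with 41 and 97 reads (-1.15, -1.71 to -0.61). The Huntington disease homolog htt (-0.37), the Wnt pathway gene Apc (-0.52), the receptor gene sev (-0.32) and the channel accessory gene unc80 (-0.18), chosen after their values were seen, all had intervals below 1.

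The 2 longest members were unnamed. NM_144448, of 55016 nt, had 2780 ethanol and 6332 control reads, the largest sum of any member (-1.09, -1.16 to -1.03). NM_175960, of 69439 nt, had 921 and 2203 (-1.17, -1.28 to -1.05). Both were called lower, as was NM_001202027 of 29145 nt with 27 and 78 reads (-1.44, -2.13 to -0.79). Reads covered only 1.44% of NM_001202027 in the ethanol library and 1.31% in the control. The remaining pair, NM_001202137 and NM_001144702, are 8967 and 8826 nt long and stood at -0.40 and -0.62. Without these 5 accessions the median of the giants was still -0.40, with 111 of 123 below 0.

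The share of each transcript covered by reads, a deposited value that depends on the reads themselves, was also lower. Median coverage over the 128 giants was 43.1% in the ethanol library and 47.1% in the control, whereas over all coding accessions it was 90.2% and 89.5%. Coverage was lower in ethanol for 83 giants and higher for 44, so 64.8% were lower, against 42.1% of all coding accessions. The change was graded by length, with a median of -0.02 percentage points from 8 to 10 kb, -1.85 from 10 to 13 kb and -4.35 at 13 kb or more. The largest losses, listed after their values were seen, were in NM_175960, Dhc93AB, ft and Ank2. NM_175960 was covered over 31.35% after ethanol and 48.39% in the control, Dhc93AB over 27.42% and 43.77%, ft over 23.82% and 38.58%, and Ank2 over 32.21% and 45.87%. Among the giant ligases, HERC2 had 91.49% and 98.12% and hiw 88.41% and 95.08%, whereas Ufd4 had 99.72% and 99.57%.

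**Figure D4:**
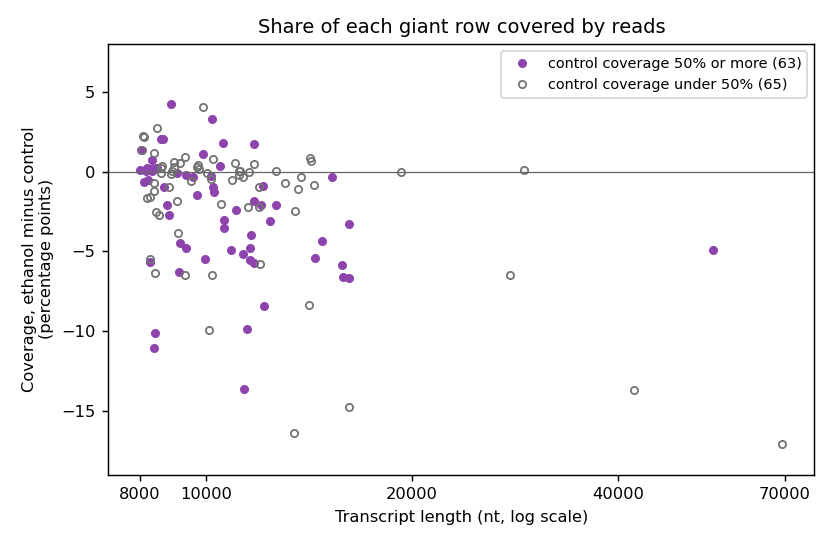
Change in the covered share of each giant transcript, ethanol minus control, in percentage points against transcript length in nt on a log scale. Filled points had at least 50% coverage in the control and open points less. Changes run from 4.25 to -17.04 points, and the large losses are mostly at 10000 nt or more.

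Coverage also shows that many giants were counted over a small part of their length. Control coverage was under 10% for 35 of the 128 and at least 90% for 44. FASN1 is an example, with reads over 6.33% of its transcript in the ethanol library and 6.0% in the control. Among the transcripts called lower, control coverage was 1.31% for NM_001202027, 5.15% for dom, 5.52% for rg and 11.29% for CAP. It was 34.39% for shot, 48.39% for NM_175960 and 72.72% for NM_144448. The sources used here do not give how reads shared by several transcripts of a gene were assigned. The lower ratio was present at both ends of this range, with a median of -0.36 for the 35 transcripts (28 below 0, 11 intervals below 1) and of -0.38 for the 44 (43 below 0, 42 intervals below 1). The 72 giants whose gene had 1 accession in the tables had a median of -0.40 and 71 below 0, and the 56 from genes with several accessions also had -0.40, with 45 below 0.

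Genes with both giant and shorter transcripts allow a comparison within a gene. In 15 named genes both kinds had at least 50 reads. The giant transcripts lay below the summed shorter ones in 7 and above in 8, and the median difference in log2 ratio was 0.01. Giant transcripts of these genes had a median of -0.47 and shorter ones of -0.36. The intervals were apart in 4 genes. Ank2 was at -0.85 on its giant transcript and 0.24 (-0.02 to 0.50) on those of 2722 to 4752 nt. LUBEL stood at -0.71 and 0.25 (-0.31 to 0.81), and Cdep at -0.61 and 0.09 (-0.04 to 0.23). Nckx30C, an exchanger of sodium, calcium and potassium, went the other way, with -0.40 on 8582 nt and -1.21 (-1.77 to -0.67) on 4948 nt. Among the 8 genes with several giant transcripts, intervals were apart in 2. The zormin transcripts stood at -0.64 (-0.79 to -0.49) and -0.06 (-0.45 to 0.33). Those of CG34417 stood at 0.15 (-0.11 to 0.41), -0.82 (-1.24 to -0.41) and -0.91.

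**Figure D5:**
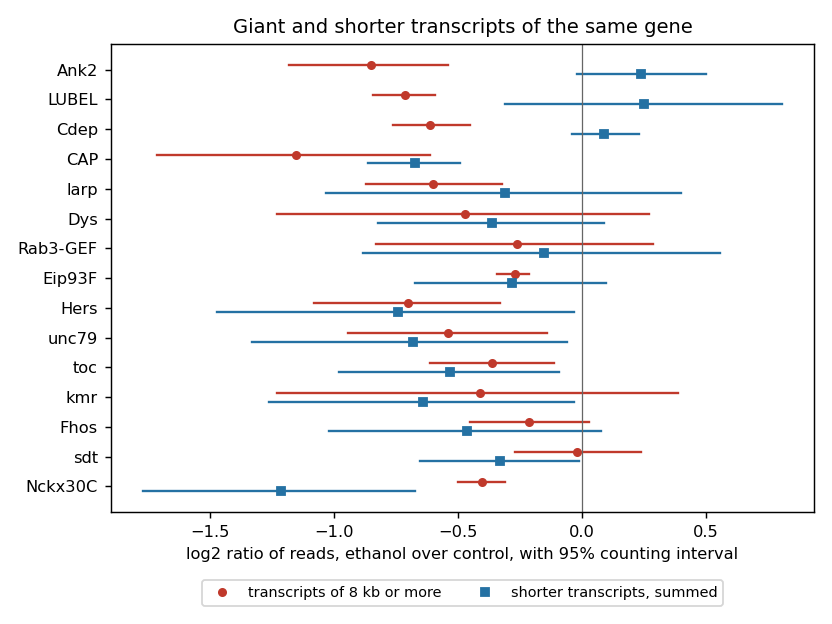
Log2 ratio of reads, ethanol over control, with 95% counting intervals, for giant transcripts (red circles) and the summed shorter transcripts (blue squares) of the same 15 genes. Genes run from the one whose giant transcripts lie furthest below its shorter ones (Ank2) to the one furthest above (Nckx30C).

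Most of the named genes had a coding sequence of at least 8000 nt. This length is the longest of any transcript of the gene, which need not be the giant transcript counted here. For btsz it was 11202 nt, longer than the whole giant transcript of 8605 nt. In the BDGP6 annotation, all 110 named genes had a coding transcript, and the median of their longest coding sequence was 9012 nt in 14 exons, against 1356 nt in 4 exons over the 7494 named genes with 50 reads. The members were chosen by transcript length, so that gap is no finding. The longest coding sequence reached 8000 nt in 74 of the 110 genes. The 86 giant transcripts of these genes had a median log2 ratio of -0.43 (78 below 0), and the 37 of the other genes, which are shorter at a median of 8453 nt against 11172 nt, one of -0.32 (33 below 0).

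Cell type markers were looked at beside these values. Summed levels in the ethanol and control libraries were 774 and 792 RPM (reads scaled to the library total) for 11 neuron markers, 1139 and 1271 for 10 of 12 glia markers, and 68926 and 73785 for 10 photoreceptor markers. They were 240018 and 246351 for 9 of 10 fat body markers, 2426 and 3020 for 12 muscle markers and 808 and 954 for 11 hemocyte markers, and no marker in the tables was at 0. The median log2 ratio of the markers with 50 reads was -0.05 for neurons, 0.10 for glia, -0.02 for photoreceptors, -0.03 for fat body, -0.18 for muscle and -0.14 for hemocytes. Of such markers, 3 of 10 for neurons, 3 of 9 for glia, 5 of 10 for photoreceptors, 5 of 9 for fat body, 7 of 12 for muscle and 6 of 9 for hemocytes had intervals below 1. Intervals above 1 were seen for 1 neuron, 5 glia, 4 photoreceptor, 3 fat body, 2 muscle and 0 hemocyte markers. The giant hemocyte gene Hml, which the hemocyte list also holds, had 1676 and 2209 reads (-0.31, -0.40 to -0.21). The part of these cell types in the ratios of giant transcripts was not tested.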

How the data were processed

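Poly(A) RNA from fly heads was measured in 1 ethanol and 1 control library. Per the file headers, the authors deposited for each RefSeq accession the count of uniquely assigned reads, the transcript length, the percent of the transcript covered, and RPKM, and a series table that adds a p-value, an FDR and a log2 ratio. Per the submitters' processing notes, the genome build was BDGP 5. The aligner, the counter and the use of strand were not given in the sources used here, so reads of antisense partners cannot be separated.

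Accessions were named with the RefSeq Release 6 annotation, and coding lengths came from Ensembl's BDGP6 annotation, both used without coordinates since the builds differ. Log2 ratios (ethanol over control) used counts scaled by library totals, with 95% Clopper-Pearson intervals from scipy 1.17.1. The calculation was tested on simulated data. With 1 library per group there is no replicate test. Alternatives were TMM factors (edgeR 4.0.16), 3 other scalings, other floors, lengths, thresholds and intervals, a lowess level trend (statsmodels 0.14.6), pseudocounts, and sums per gene. Chosen after seeing the data were named accessions only and coverage of at least 90%.

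Genes were named by a rule: the 12 genes with most reads, the 10 highest and 10 lowest ratios with 200 reads, calls, the 5 longest, 3 on each side of each threshold, up to 3 per role list, and genes whose transcripts differ. The members and lists were chosen with earlier results of these data known. The 10 role lists cover 58 of the 128 transcripts, 1 of them (FASN1) in a list of metabolic enzymes, whose 16 shorter transcripts had a median of -0.05. No sequences are shown.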

Additional observations from a re-analysis of the deposited data

How the results depend on the processing

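The direction of the giant median was kept under every alternative run. It was -0.45 with TMM, -0.47 with median-of-ratios factors, -0.43 with totals without the 10 most abundant accessions and -0.24 with the reads of 4 to 8 kb accessions as the total, a scaling that moves all values up by 0.17 and brings the median of all coding accessions to 0.21. It was -0.38 with a floor of 200 reads, -0.32 from 6000 nt, -0.47 from 10000 nt, -0.38 with 90% coverage, -0.43 as a mean, and -0.27 and -0.38 with pseudocounts of 1 and 0.1 RPKM. With the 4 to 8 kb scaling, Alk (0.02) and Nup358 (0.00) no longer lay below 0, and 103 of 128 did. Calls of 2-fold higher were 2 with a floor of 20 reads, 4 with 1 read and 1 from 6000 nt. Calls of 2-fold lower were 4 with the 4 to 8 kb scaling, 15, 20 and 3 with floors of 20, 1 and 200 reads, 17 from 6000 nt, 3 with genes of 1 accession, 4 with named accessions, 0 with 90% coverage, 34 at 1.5-fold and 0 at 4-fold. Intervals above 1 were 0 with TMM, median-of-ratios, totals without the 10 most abundant, 10000 nt, genes of 1 accession or a wider interval, 4 with the 4 to 8 kb scaling, 3 and 5 with floors of 20 and 1 reads, 12 from 6000 nt, 2 summed per gene and 2 with the level trend removed. Intervals below 1 were 204 of 353 from 6000 nt, 48 of 66 from 10000 nt and 36 of 38 with 90% coverage, which change the number of transcripts. Over the same 128 they fell to 65 with the 4 to 8 kb scaling, to 65 with the wider interval and to 83 with the level trend removed, against 90, and were 90 to 94 with the other scalings. No paired analysis was possible because each group has 1 library. Members with few reads are limited by depth, since 14 of 39 members under 200 reads had intervals below 1, against 76 of 89 with more.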
